A study of Mus musculus with 14 samples.

Results

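The transcriptomes of granule neuron progenitors (GNPs) that had lost both copies of Chd7 were compared with those of GNPs that had lost 1 copy, which asks what the loss of the second copy adds. The comparison used 4 Chd7 Hom and 5 Chd7 Het libraries of the 14 RNA sequencing (RNA-seq) libraries, and tested the 17325 genes of 41381 that reached at least 1 TPM in at least 4 libraries (TPM is a gene's share of all transcripts, scaled to a fixed total). Going from 1 copy to none lowered 48 genes and raised 26. Otx1, a homeodomain factor of brain patterning, fell to 0.16 of its Het level, and Slit1, a secreted repellent of growing axons, rose 7.1-fold. Gap43 and Stmn2, which serve growing axons, were among the genes that fell.

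All libraries came from GNPs that were isolated on a percoll gradient from mouse cerebella at postnatal day 7 (P7) and were sequenced without culture. Het 3 to 5 are labelled Atoh1-Cre::Chd7 f/+ and Hom 3 and 4 Atoh1-Cre::Chd7 f/f, while the labels of the lower numbers give only a het or hom mutant of Chd7, with the Cre taken from the study's text. Both groups carry Atoh1-Cre, a recombinase driven in the granule cell lineage, so that the Cre itself does not separate them. The 5 WT libraries, used here for the first step from 2 copies to 1, are labelled as wild type for Chd7 (WT 1 to 3) or as negative for Atoh1-Cre (WT 4 and 5). The mutants carry Atoh1-Cre and WT does not, so the loss of 1 copy and the presence of Cre cannot be told apart in the first step, nor in the classes and the departure from equal steps that use it. Sequencing batch was taken from the study, with numbers up to 3 of WT and Het and up to 2 of Hom in batch 1 and all later numbers in batch 2. The strain is labelled C56Bl6/J in batch 1 except Het 3, and C57BL/6 in Het 3 and batch 2. The study describes less recombination by Atoh1-Cre in the posterior lobe, so mutant libraries can hold cells that keep the protein, and pups of both sexes were used.

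Chd7 is an ATP-dependent chromatin remodeller that slides nucleosomes at enhancers and promoters. Loss of 1 copy causes CHARGE syndrome in humans, so that many tissues are sensitive to its dose. GNPs divide in the external granule layer under Sonic hedgehog, leave the cell cycle in the inner part of that layer, extend axons and migrate inward to become granule neurons. A gene that depends on the dose of a remodeller can change at each lost copy, or hold its level with 1 copy and change only when the second is lost. Both patterns are described below by 2 differences on the log2(TPM + 1) scale: the first step, Het minus WT, and the second step, Hom minus Het.

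Expression of Chd7 was examined first. Chd7 (ENSMUSG00000041235, GRCm38 chromosome 4) had TPM values of 165.77, 181.3, 150.35, 149.36 and 136.77 in Het 1 to 5 and of 172.49, 185.39, 149.87 and 125.63 in Hom 1 to 4. The groups overlapped, and the second step was -0.00 (95% interval -0.44 to 0.43, limma adjusted p = 0.999). A gene-level TPM includes reads from exons that a floxed allele keeps, so this value does not check the genotype labels, and the groups stand as labelled. By qRT-PCR the study reports fewer Chd7 transcripts in Het and Hom GNPs than in WT. It also reports loss of the protein in Hom granule cells by immunostaining. Whether those samples are the ones sequenced here is not stated. Every library had between 15863 and 16734 genes at 1 TPM or more. TPM keeps no read number, so that the depth of a single library is unknown here. Several libraries, among them Het 3, Het 4, Hom 1, Hom 3 and Hom 4, held both Xist and Y-linked transcripts, while Het 1 and Hom 2 were low in Y-linked transcripts and Het 2 and Het 5 were low in Xist. Markers of the lineage were present, with mean levels in Het and Hom of 31.0 and 29.8 TPM for Atoh1, of 674 and 581 TPM for Pax6 and of 898 and 833 TPM for Zic1. Markers of other cells were also present: the summed TPM of 11 astroglial markers ran from 676.71 to 1266.88 in Het and from 409.83 to 806.75 in Hom, and that of 10 endothelial markers from 24.55 to 544.44 and from 128.39 to 408.5. Neither list had a called gene, which lists of 11 and 10 genes are not expected to hold, and the part of these cells in the results was not tested. In such bulk samples fewer cells of a type and less RNA per cell cannot be told apart.

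A gene was called when its Benjamini-Hochberg adjusted p from limma was under 0.05. The 48 lower genes were 0.277% and the 26 higher genes 0.15% of those tested, together 0.427%. Before adjustment, 542 genes lay lower and 529 higher with a p under 0.05. Leaving out single libraries gave 19 to 48 lower and 9 to 26 higher genes. The lower count dropped by over 1.5 times without WT 2 (26), Het 1 (20), Het 2 (19), Het 3 (26), Het 4 (24), Het 5 (22), Hom 1 (19), Hom 2 (31) or Hom 4 (22). For rises the same held on leaving out Hom 1 (9), Hom 2 or Hom 4 (16 each), Het 1 or Het 2 (14 each) or Het 4 (17). The median second step was -0.61 over the called lower genes and 0.84 over the called higher genes, with a median of 0.02 over all genes tested. Only 4 genes fell by more than 1 on the log2 scale and 6 rose by more than 1. In 41 of the 48 lower genes every Hom library lay below every Het library, an order that 1.06% of all tested genes had. In 21 of the 26 higher genes every Hom library lay above every Het library, against 1.11% of all tested genes. The call rests on the same libraries and favours such an order, so these counts only describe the called genes. Of the 74 called genes, 69 are annotated as protein coding. The plot of change against expression level shows called genes at low and at high expression.

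**Figure D1:**
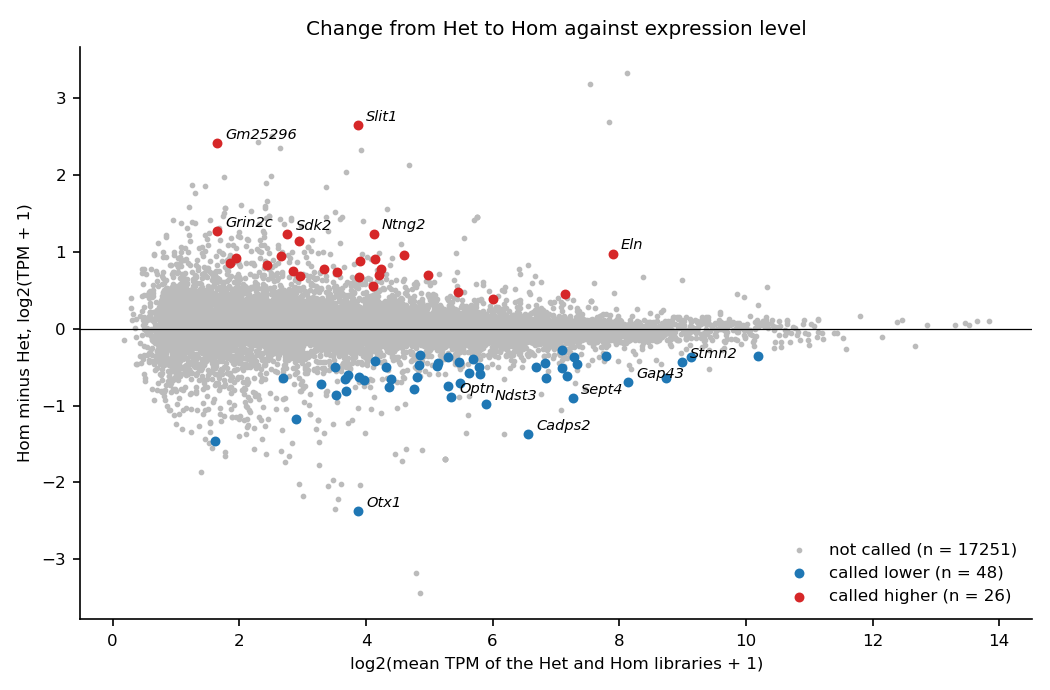
Hom minus Het change on the log2(TPM + 1) scale (vertical axis) against log2 of the mean TPM of the 9 Het and Hom libraries plus 1 (horizontal axis), 1 point per tested gene. The 48 genes called lower (blue) reach down to Otx1 at -2.38, and the 26 called higher (red) up to Slit1 at 2.65; grey genes with changes as large were not called.

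Otx1 showed the largest fall among the called genes. This homeodomain transcription factor is a partner of Otx2 in the patterning of the midbrain and hindbrain, and it is expressed in granule progenitors of the cerebellum. Otx1 (ENSMUSG00000005917, GRCm38 chromosome 11, 21994764 to 22002897, minus strand) had TPM values of 16.38, 21.54, 22.66, 21.41 and 26.79 in Het 1 to 5. The values were 4.29, 2.61, 3.14 and 3.91 in Hom 1 to 4. All Hom libraries lay far below all Het libraries, whereas the Het libraries lay within the WT range of 16.27 to 39.49. The second step was -2.38 (SE 0.19, limma adjusted p = 5.14e-05), -2.27 in batch 1 and -2.47 in batch 2, and the first step was -0.17 (95% interval -0.54 to 0.21).

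Optn encodes optineurin, an autophagy receptor and adaptor of vesicle traffic. Optn (ENSMUSG00000026672, chromosome 2, 5020642 to 5064051, minus strand) had 44.7, 52.41, 52.76, 51.4 and 49.12 TPM in Het 1 to 5 and 24.12, 26.5, 30.4 and 26.08 TPM in Hom 1 to 4. Its Het level was 97.5% of the WT level, and its Hom level 53.5% of the Het level. The second step was -0.89 (SE 0.07, limma adjusted p = 5.14e-05), beside a first step of -0.04 (95% interval -0.18 to 0.11). An antisense transcript, 4930551O13Rik, overlaps Optn, and reads of the 2 cannot be told apart without the strand, whose use in the counting is not stated.

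Cadps2 and Gm16169 had the largest falls among genes that declined at both steps and averaged at least 5 TPM in Het or Hom. Cadps2 is required for the exocytosis of dense core vesicles, through which granule cells release neurotrophins. Cadps2 (ENSMUSG00000017978, chromosome 6, 23262773 to 23839421, minus strand) had 131.78, 167.16, 120.6, 119.32 and 108.61 TPM in Het 1 to 5 and 52.73, 55.64, 44.94 and 41.34 TPM in Hom 1 to 4. All Het values except that of Het 2 were below the lowest WT value of 166.27, and all Hom values were far below those of Het. The second step was -1.37 (SE 0.11, limma adjusted p = 5.14e-05) and the first was -0.52 (95% interval -0.74 to -0.30). Gm16169, a noncoding transcript, fell by 1.18 in the second step (SE 0.16, adjusted p = 0.00622), from 9.06 ± 2.12 (SD, n = 5) to 3.25 ± 0.27 TPM (SD, n = 4).

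Further large falls were those of Sept4, Nefl, Gprin3, Ndst3, Cdh7 and Rwdd3. Sept4, a septin of the cytoskeleton, went from 195 ± 32.5 to 101 ± 8.07 TPM (SD, n = 5 and n = 4), a change of -0.91 (SE 0.09, limma adjusted p = 5.69e-04). Nefl, the light neurofilament subunit, changed by -0.76 (adjusted p = 0.00276), and Gprin3, a regulator of neurite outgrowth that binds G proteins, by -0.81 (adjusted p = 0.00414). These 3 calls held when any library was left out. Ndst3, an enzyme of heparan sulfate synthesis, changed by -0.98 (adjusted p = 0.0331), Cdh7, a classical cadherin, by -0.86 (adjusted p = 0.0246) and Rwdd3, an enhancer of sumoylation, by -0.79 (adjusted p = 0.0233). The calls of these 3 were lost when any 1 of several libraries was left out. That of Ndst3 was lost without WT 2, Het 1, Het 2, Het 4, Hom 1, Hom 3 or Hom 4, at an adjusted p of up to 0.101. Cdh7 lost its call without Het 1, Het 2, Het 4, Het 5 or Hom 2, at up to 0.0875. Rwdd3 lost its call without Het 1, Het 2, Het 4, Het 5, Hom 1 or Hom 4, at up to 0.0672.

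Slit1 showed the largest rise among the called genes. Slit proteins bind Robo receptors and repel axons and migrating neurons. Slit1 (ENSMUSG00000025020, chromosome 19, 41600257 to 41743665, minus strand) had 3.49, 1.19, 3.23, 2.2 and 8.26 TPM in Het 1 to 5 and 24.85, 23.79, 22.34 and 33.31 TPM in Hom 1 to 4. Every Hom library exceeded every Het library, and Het 5 was the highest of the Het libraries. The second step was 2.65 (SE 0.29, limma adjusted p = 0.00101) and the first 0.99 (95% interval 0.41 to 1.57), from a WT mean of 1.11 ± 0.32 TPM (SD, n = 5).

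Ntng2 and Sdk2, both surface proteins of synaptic wiring, followed among the rises of genes that averaged at least 5 TPM in Het or Hom. Ntng2 encodes netrin-G2, a membrane-anchored relative of the netrins, and Sdk2 encodes sidekick 2, an adhesion molecule of the immunoglobulin superfamily. Ntng2 (ENSMUSG00000035513, chromosome 2, 29194541 to 29253005, minus strand) had 9, 8.55, 7.8, 9.64 and 14.37 TPM in Het 1 to 5 and 25.46, 22.32, 24.53 and 25.77 TPM in Hom 1 to 4. Its second step was 1.24 (SE 0.14, limma adjusted p = 0.00106), with no overlap between Hom and Het. The noncoding gene 6530402F18Rik lies within the Ntng2 region on the same strand and changed by 0.95 (adjusted p = 0.00847), so that reads may be split between them. Sdk2 had 3.96, 3.14, 2.69, 2.76 and 3.36 TPM in Het 1 to 5 and 8.06, 7.96, 8.49 and 11.42 TPM in Hom 1 to 4, a second step of 1.23 (SE 0.16, adjusted p = 0.00363).

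The plot of levels by library shows these patterns side by side for 4 genes that fell and 4 that rose.

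**Figure D2:**
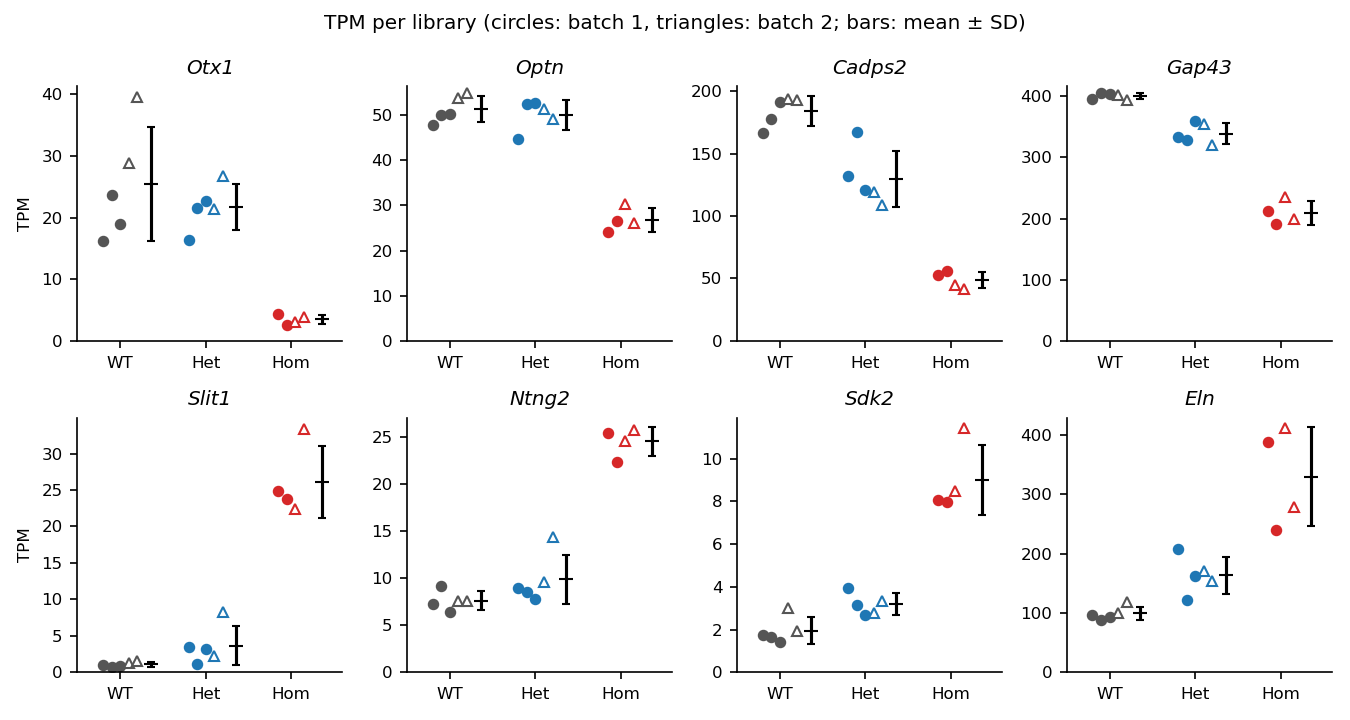
TPM (vertical axes, from 0) of 8 genes in each WT, Het and Hom library (points, n = 5, 5 and 4), with filled circles for batch 1 and open triangles for batch 2, and the mean ± SD at the right of each group. For Otx1 and Optn the Het points lie among the WT points and the Hom points below both, whereas for Cadps2, Gap43, Sdk2 and Eln the Het mean lies between those of WT and Hom.

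Clic6, Eln, Antxr1, Fgfr4 and Pnoc made up the rest of the largest named rises with a symbol. Eln encodes elastin, the core of elastic fibres, and went from 164 ± 30.7 to 330 ± 83.7 TPM (SD, n = 5 and n = 4), with values of 207.88, 122.48, 162.11, 170.4 and 154.78 in Het and 389.2, 239.81, 411.87 and 278.4 in Hom. Its second step was 0.98 (SE 0.17, limma adjusted p = 0.0226), and the call was lost without Het 2, Het 4, Het 5, Hom 1 or Hom 3, where the adjusted p reached 0.106. Loxl1, a lysyl oxidase that crosslinks elastin, rose by 0.77 (adjusted p = 0.0109); it was named after its values were seen. Clic6, a chloride intracellular channel protein known from the choroid plexus, went from 4 ± 0.63 to 10.1 ± 1.33 TPM, a change of 1.14 (adjusted p = 0.00558). The summed TPM of 9 choroid plexus markers, Clic6 and Otx2 included, lay between 71.3 and 247.57 in Het and between 132.19 and 185.19 in Hom, and the defining marker Ttr, which was not called, had a change of 0.14 (adjusted p = 0.997) and means of 29.3 TPM in Het and 9.73 TPM in Hom. Their part in the rise of Clic6 was not tested.

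Antxr1, a receptor for collagen and anthrax toxin, changed by 0.91 (limma adjusted p = 0.00847), and Fgfr4, a receptor for fibroblast growth factors, by 0.88 (adjusted p = 0.0117). The call of Fgfr4 was lost without Hom 1 or Hom 4, at an adjusted p of up to 0.0673. Pnoc, the precursor of nociceptin, changed by 0.83 (adjusted p = 0.0497), and its groups overlapped, at 1.5 to 5.36 TPM in Het and 3.39 to 8.2 TPM in Hom. Its call was lost without any 1 of 13 libraries, all but Het 5, with an adjusted p of up to 0.173. ENSMUSG00000097348, which has no symbol or position in the annotation used, went from 16.3 ± 2.22 to 32.0 ± 6.92 TPM (change 0.96, adjusted p = 0.00406).

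Promoter sequences are shown for the falling gene with the smallest first step among the largest falls (Optn), for a gene that fell at both steps (Cadps2) and for a rising gene (Ntng2). Proneural factors of the Atoh1 and Neurod1 family bind E-boxes, of which the forms CAGATG and CAGCTG were searched on both strands (CATCTG is the first form read on the other strand). Each stretch holds 300 bases, from 250 before to 50 after the transcript start, from RefSeq on GRCm38.p6, written 5′ to 3′ on the minus strand of the gene, with matches in capitals: chr2:5064068-5064367 for Optn, chr6:23839372-23839671 for Cadps2 and chr2:29248050-29248349 for Ntng2.
Optn: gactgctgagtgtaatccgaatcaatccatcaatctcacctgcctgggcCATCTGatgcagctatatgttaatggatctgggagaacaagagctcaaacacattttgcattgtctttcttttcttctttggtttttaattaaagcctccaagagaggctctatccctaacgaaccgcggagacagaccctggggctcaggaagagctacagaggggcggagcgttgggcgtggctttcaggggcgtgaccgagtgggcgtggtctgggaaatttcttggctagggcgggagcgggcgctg
Cadps2: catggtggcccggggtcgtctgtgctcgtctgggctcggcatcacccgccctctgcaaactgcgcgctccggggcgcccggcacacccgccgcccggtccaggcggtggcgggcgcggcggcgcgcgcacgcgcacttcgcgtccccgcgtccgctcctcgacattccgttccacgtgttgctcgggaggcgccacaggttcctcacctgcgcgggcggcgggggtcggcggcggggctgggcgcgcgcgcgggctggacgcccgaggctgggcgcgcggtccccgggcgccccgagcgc
Ntng2: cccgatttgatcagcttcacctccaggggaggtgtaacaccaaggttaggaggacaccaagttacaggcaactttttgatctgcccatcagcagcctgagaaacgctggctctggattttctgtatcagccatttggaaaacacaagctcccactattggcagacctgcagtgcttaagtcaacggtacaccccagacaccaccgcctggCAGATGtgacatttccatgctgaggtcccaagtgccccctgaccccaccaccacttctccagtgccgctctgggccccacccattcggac

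The promoters of Optn and Ntng2 each held 1 match and that of Cadps2 held none. The Ntng2 stretch belongs to a RefSeq start inside the gene span given above, which ends at 29253005. It is therefore not the stretch at the 5′ end of that span, and it also lies inside 6530402F18Rik. Over all 32851 promoters of the table, of tested and untested genes alike, 30.6% held at least 1 match. Of the called genes 36 of the 48 lower and 15 of the 26 higher were in the table, with 45 and 18 promoters, of which 44.4% and 33.3% held a match. The share among promoters of tested genes alone was not counted, so no excess can be read from these percentages. A match is a description of letters and not a site in use. Otx1, Slit1 and Gap43 had no entry.

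Whether the second step differs from the first was then examined for each gene, with the contrast Hom minus 2 times Het plus WT, which is 0 when both steps are equal. At a limma adjusted p under 0.05 no gene departed from equal steps. At an unadjusted p under 0.05 there were 224 genes below 0 and 261 above 0, together 2.8% of those tested. Otx1 and Optn came closest, with departures of -2.21 (unadjusted p = 7.06e-06) and -0.85 (unadjusted p = 5.22e-06), both at an adjusted p of 0.0612. Over the alternative settings and left-out libraries their adjusted p ran from 0.0328 to 1 for Otx1 and from 0.0367 to 1 for Optn, with the highest value in batch 2 alone. Each gene stayed short of a call in 9 of 14 alternative settings and passed in the others. On leaving out single libraries, Otx1 passed without WT 5 (0.0328) or Hom 1 (0.0339), and Optn never passed. Among the called genes, 34 of 48 lower and 16 of 26 higher had an unadjusted p under 0.05 for the departure, and in all 74 the departure had the sign of the second step. The call and the departure share the Het and Hom libraries, so that called genes are drawn towards large second steps and these counts are a description.

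The 74 called genes were sorted by their first step. In 20 genes, 14 lower and 6 higher, the 95% interval of the first step lay within 50% of the size of the second step on either side of 0, which is called a second-copy pattern here. In 39 genes, 23 lower and 16 higher, the first step had the sign of the second and an unadjusted p under 0.05, a stepwise pattern. In 14 genes, 11 lower and 3 higher, the first step was not resolved. Het minus WT and Hom minus Het both use the Het libraries, and the classes therefore carry no test. The plot of first and second steps shows the 4 classes.

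**Figure D3:**
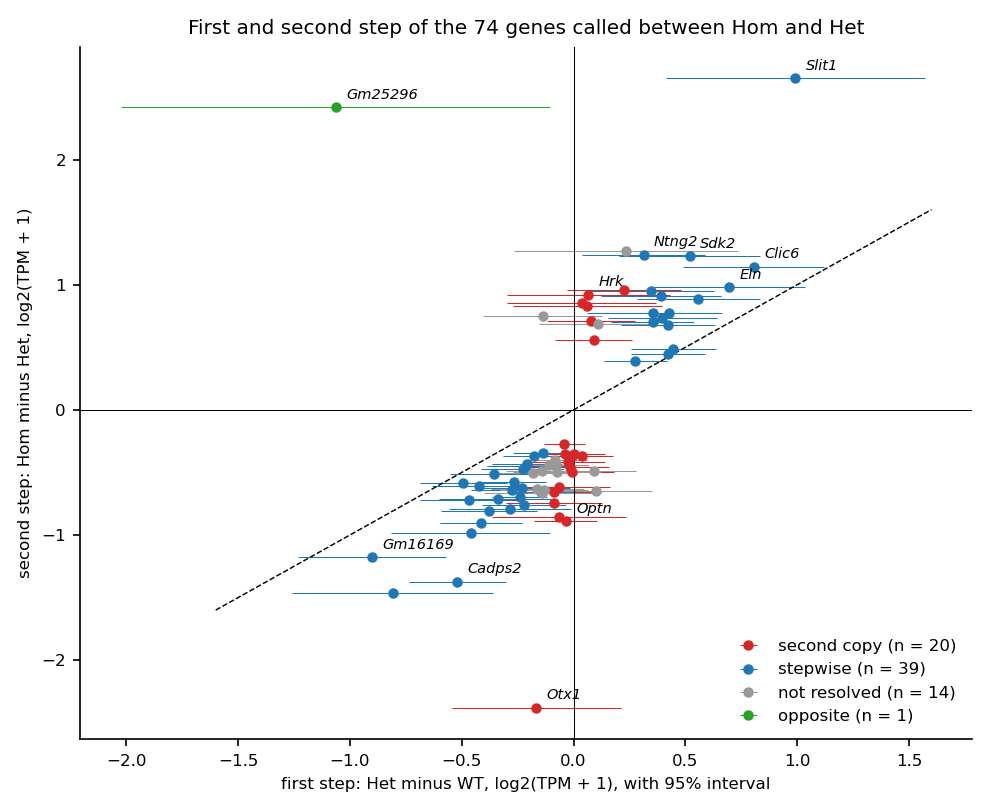
First step (horizontal axis, Het minus WT with its 95% interval) and second step (vertical axis, Hom minus Het) on the log2(TPM + 1) scale for the 74 called genes, coloured by class, with a dashed line where both steps are equal. The 20 second-copy genes (red) lie close to 0 on the horizontal axis, with Otx1 lowest at -2.38, and the 39 stepwise genes (blue) lie further from the horizontal line than from the vertical one.

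The 14 lower genes of the second-copy pattern included, beside Otx1, Optn and Cdh7, Scg2, a granin of secretory granules (second step -0.74, first step -0.09), Insc, an adaptor of spindle orientation (-0.66 and -0.09), Ebf3, a transcription factor of neuronal differentiation (-0.62 and -0.07), and Clmp, a junctional adhesion molecule (-0.50 and -0.01). Scg2 had 40.56, 42.34, 46.73, 48.11 and 55.56 TPM in Het 1 to 5 and 23.76, 27.06, 24.88 and 36.95 TPM in Hom 1 to 4, so that the groups did not overlap. Cib2, a calcium-binding protein, had a second step of -0.42, and Syt9, a synaptotagmin, one of -0.37. Tubb3, the neuronal beta-tubulin, changed by -0.37, Ckb, the brain creatine kinase, by -0.35, Clic1 by -0.35 and Fam107b by -0.27. Over the 14 genes the median second step was -0.47 and the first step ran from -0.17 to 0.04. Tubb3, Ckb and Syt9 overlapped between Hom and Het across batches, and did not overlap within a batch.

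The 6 higher genes of the second-copy pattern came next. Wnt5a, a ligand of noncanonical Wnt signalling, had 12.21, 14.19, 12.47, 13.48 and 14.78 TPM in Het 1 to 5 and 23.09, 24.08, 20.14 and 23.14 TPM in Hom 1 to 4, which did not overlap. Its second step was 0.71 (limma adjusted p = 0.00615) and its first step 0.08, with a WT mean of 12.7 TPM. Hrk, a BH3-only promoter of apoptosis, was low, at 1.22 to 2.97 TPM in Het and 3.72 to 4.95 TPM in Hom, with steps of 0.92 (adjusted p = 0.0454) and 0.07. The others were Thsd7b (0.86), Pnoc (0.83), Prag1 (0.56) and ENSMUSG00000097348 (0.96), with first steps of 0.04, 0.06, 0.09 and 0.23.

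In all 39 stepwise genes the second step was the larger, by a factor of 1.06 to 4.52 with a median of 2.1. Because genes were called on the second step, a larger second step is favoured by that choice. Olfm1, a secreted glycoprotein of neurons, lay at the even end, with 88.1, 119 and 166 TPM on average in WT, Het and Hom and a departure with an unadjusted p of 0.854. Grik2, a kainate receptor subunit, was also even, at 90.9, 64.6 and 42.4 TPM (unadjusted p of the departure 0.577). Gm25296, a small nucleolar RNA within Rack1, was the 1 gene whose steps had opposite signs. It was listed at 0 in all 5 Het libraries, at 3.55, 9.25, 4.41 and 2.13 TPM in Hom 1 to 4, and at 0 in 2 WT libraries. Total-RNA libraries capture so short a transcript poorly, and no fold is given.

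Calls in gene lists stand beside 0.277% of all tested genes called lower and 0.15% called higher. The lists were chosen with earlier results of these data known. Of 15 listed genes of early granule neurons 3 were called lower, 14 had a change below 0, and the median change was -0.31 beside 0.02 over all genes. Without Hom 4 that median was -0.18. Other lists had medians as far from 0 without a call by limma: -0.49 over 11 astroglial markers (8 below 0), -0.28 over 13 immediate early genes (11 below 0) and 0.47 over 10 endothelial markers (9 above 0), none of these with a gene at an unadjusted p under 0.05. The astroglial median was -0.31 without Hom 3 and -0.76 without Hom 4, and the immediate early median -0.18 without Hom 3. The endothelial median was 0.96 without Het 2, -0.04 without Het 3, 0.29 without Het 4 and -0.05 without Hom 2. Gap43, a growth cone protein that supports axon extension, had 332.98, 327.71, 360.11, 354.37 and 319.97 TPM in Het 1 to 5 and 212.97, 191.21, 235.8 and 198.9 TPM in Hom 1 to 4. The groups did not overlap, and the second step was -0.70 (SE 0.06, limma adjusted p = 1.30e-04). Stmn2, a stathmin that regulates microtubules in growing axons, went from 575 ± 34.7 to 424 ± 22.8 TPM (SD, n = 5 and n = 4), a change of -0.44 (adjusted p = 0.00344). Tubb3, whose reads may be shared with the overlapping Gm20388, went from 618 ± 77.4 to 492 ± 95.4 TPM (SD, n = 5 and n = 4, adjusted p = 0.0438), a call that was lost without any 1 of 11 libraries, all but WT 4, WT 5 and Hom 3, with an adjusted p of up to 0.146. Neurod1, the proneural factor of granule neurons, had a change of -0.52 (adjusted p = 0.0542), at 501.42 to 595.69 TPM in Hom and 753.11 to 875.62 TPM in Het, and did not pass the test although its groups did not overlap.

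Genes of mature granule neurons gave 1 call among 9 tested, and it was a rise. Over the list 6 genes had a change below 0 and 3 above 0. The median change was -0.04 and lay between -0.11 and 0.04 without single libraries. Grin2c, the NMDA receptor subunit that granule cells take up late in maturation, changed by 1.27 (SE 0.25, limma adjusted p = 0.0454) at low levels, with 1.03, 0.35, 0.66, 0.45 and 2.21 TPM in Het 1 to 5 and 3.98, 2.21, 3.38 and 4.89 TPM in Hom 1 to 4. Het 5 equalled Hom 2, and the call was lost without any 1 of 12 libraries, all but WT 4 and Het 5, with an adjusted p of up to 0.188. Cbln1, a synaptic organizer that granule cells secrete, had a change of -0.31 (adjusted p = 0.0542) and Slc17a7, the vesicular glutamate transporter, of -0.64 (adjusted p = 0.195). These 2 were chosen after their values were seen.

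No gene of the progenitor cell cycle list, with 19 tested, was called by limma, and 2 had an unadjusted p under 0.05. With 0.427% of all genes called, a list of this size is not expected to hold a call. The median change was 0.03 and lay between -0.00 and 0.12 without single libraries. Mki67, a marker of dividing cells, had a change of 0.07, and Top2a, the topoisomerase of dividing cells, one of -0.03. Ccnd1, a D cyclin that Hedgehog signalling maintains in GNPs, had the largest change of the list, with 122.83, 108.84, 132.24, 122.63 and 133.42 TPM in Het 1 to 5 and 155.2, 151.06, 166.41 and 192.19 TPM in Hom 1 to 4. Its change was 0.40 (adjusted p = 0.0549), short of a call although its groups did not overlap. Of 14 Hedgehog genes none was called and 3 had an unadjusted p under 0.05, and the median change was 0.11, with 0.00 in batch 1, 0.23 in batch 2 and 0.04 without Het 4.

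The patterning list held opposite changes within the Otx pair. Otx2, the homologue of Otx1, had 74.64, 80.68, 77.04, 61.55 and 104.15 TPM in Het 1 to 5 and 120.54, 117.03, 131.22 and 143.69 TPM in Hom 1 to 4. All Hom values were above all Het values, with a change of 0.68 (SE 0.14, limma adjusted p = 0.0549) that did not pass the test. The first step of Otx2 was -0.02. Otx1 was the 1 called gene of the 18 tested. Otx2 and Ccnd1 were chosen here after their values were seen.

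In vesicle release, 3 of 30 genes were called lower, none higher, and 23 had a change below 0, with a median of -0.14. Beside Cadps2 they included Syp, a glycoprotein of synaptic vesicles, with a change of -0.37 (limma adjusted p = 0.0414). Syp had 150.2, 171.86, 171.83, 186.03 and 180.67 TPM in Het 1 to 5 and 119.67, 127.54, 165.35 and 128.79 TPM in Hom 1 to 4, and the groups overlapped through Hom 3. Its call was lost without any 1 of 12 libraries, all but WT 4 and Hom 3, at an adjusted p of up to 0.156. Rab3a, a small GTPase of synaptic vesicles that was not called, had a change of -0.34. Scg2, Pcsk2, a convertase that cleaves prohormones in secretory granules, and Syt9 were called lower as well, outside the list and chosen after their values were seen.

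Axon guidance gave 3 calls among 43 genes, of which 2 were the rises of Slit1 and Ntng2. The other was Efnb2, an ephrin ligand of Eph receptors, with 24.08, 19.94, 22.12, 20.52 and 22.77 TPM in Het 1 to 5 and 17.45, 13.01, 14.39 and 16.19 TPM in Hom 1 to 4. Its change was -0.50 (limma adjusted p = 0.0454), a call that was lost without any 1 of the 14 libraries, with an adjusted p of up to 0.147. Of 44 adhesion genes, Slitrk5, a leucine-rich repeat protein of synapses, fell by 0.66 (adjusted p = 9.40e-04) and Sdk2 rose. Slitrk5 had 24.27, 23.38, 26.26, 23.45 and 23.24 TPM in Het 1 to 5 and 15.03, 14.16, 14.94 and 15.37 TPM in Hom 1 to 4, without overlap.

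Of 39 potassium channel genes only Kcnj3, a G protein-gated inward rectifier, was called, with a change of -0.58 (limma adjusted p = 0.00276) from 57.3 ± 5.74 to 37.6 ± 2.75 TPM (SD, n = 5 and n = 4). Kcnd2, an A-type channel, had a change of -0.96 (adjusted p = 0.0648). Of 22 glutamate receptor genes Grik2 fell by 0.58 (adjusted p = 0.0195) and Grin2c rose. The call of Grik2 was lost without Het 5, Hom 1, Hom 3 or Hom 4, at an adjusted p of up to 0.0673. No sodium, calcium or HCN channel gene of 28 and no GABA-A receptor gene of 10 was called, with 3 and 2 at an unadjusted p under 0.05. With 0.427% of all tested genes called, lists of these sizes are not expected to hold a call. Of 30 extracellular matrix genes Eln was called, and 23 had a change above 0, with a median of 0.14. That median rested on single libraries: it was 0.01 without Het 3, 0.02 without Hom 2, 0.04 without Hom 4 and 0.08 without Het 4, and 0.27 without Het 2, Hom 1 or Hom 3. Of 12 interferon and antigen presentation genes Ifi203, an interferon-inducible nuclear protein, fell by 0.71 (adjusted p = 0.0366). Its reads may be shared with Mndal, which overlaps it on the same strand, and its call was lost without WT 2, Het 1, Het 2, Het 4, Het 5, Hom 1, Hom 3 or Hom 4, at an adjusted p of up to 0.147.

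Sterol synthesis gave no call among 22 genes by limma, but 20 of them had a change below 0, and 9 had an unadjusted p under 0.05. The median change of the list was -0.20, beside 0.02 over all tested genes. Its size differed between batches, at -0.29 in batch 1 alone and -0.08 in batch 2 alone. Without single libraries it lay between -0.26 and -0.16. All 9 genes lay lower, as did 542 of the 17325 tested genes at the same unadjusted level. Hmgcs1, which makes the precursor of mevalonate, came nearest, with a change of -0.41 (adjusted p = 0.0607). No gene was called in the lists of reelin signalling (7 tested, 1 at an unadjusted p under 0.05), bone morphogenetic protein (BMP) signalling (24 and 3), p53 targets (15 and 0), immediate early genes (13 and 0), topoisomerases (6 and 0), Chd genes (9 and 1) or 5 sex-linked genes (0). The marker lists of other cells gave no call except Clic6. With 0.427% of all tested genes called, no single list of this paragraph is expected to hold a call.

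**Figure D4:**
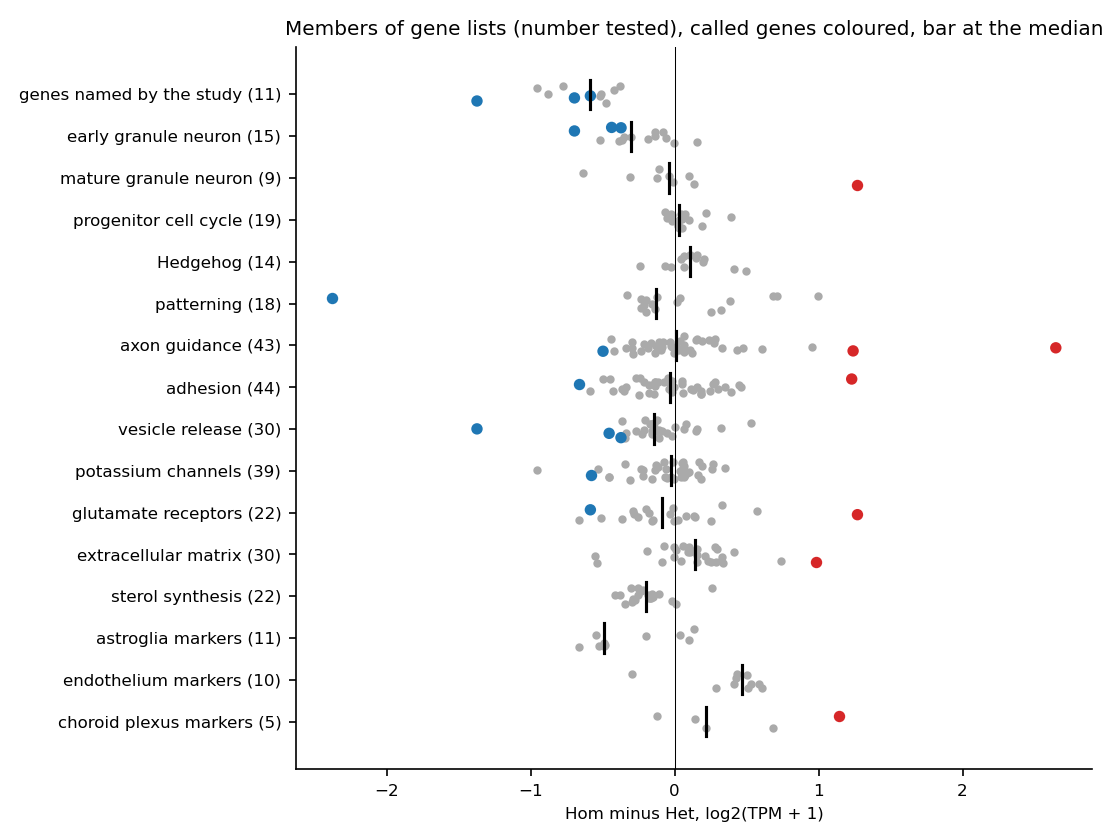
Hom minus Het change on the log2(TPM + 1) scale (horizontal axis) of the tested members of 16 gene lists, 1 point per gene, with called genes in blue (lower) or red (higher), all others in grey and a black bar at each median. The early granule neuron, vesicle release and sterol synthesis lists lie mostly below 0, as do the genes named by the study and the astroglia markers. The progenitor cell cycle list lies around 0 without a called gene.

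Of the genes that the study's text names, 11 were followed here. All 11 had a change below 0 between Het and Hom, and 3 were called: Cadps2, Gap43 and Grik2. The study presents these genes for their fall in Chd7 mutants, some from these libraries and some from cultured granule neurons, so their direction is not independent evidence. Cnksr3 and Zfpm2, which the study also names and which were looked up after the other values were seen, had changes of -0.10 (adjusted p = 0.997) and -0.47 (adjusted p = 0.738). Neurod1, Kcnd2 and Bmp5 were closest among the others, at adjusted p values of 0.0542, 0.0648 and 0.0700. Reln, the secreted glycoprotein that positions Purkinje cells, had 203.97, 267.06, 171.18, 175.37 and 215.69 TPM in Het 1 to 5 and 152.32, 149.79, 128.4 and 156.45 TPM in Hom 1 to 4. The groups did not overlap, but the second step of -0.48 was not called (adjusted p = 0.157), beside a first step of -0.51. Bmp5, a BMP ligand, had a second step of -0.88, Fstl5 of -0.77 (adjusted p = 0.212), Nkain3 of -0.51 (adjusted p = 0.112), Unc5c, a netrin receptor, of -0.42 (adjusted p = 0.566) and Cacna2d1, a calcium channel subunit, of -0.38 (adjusted p = 0.499), none of them called. Of 142 tested genes that the study lists as lower in Hom, likewise chosen with these libraries, 28 were called lower between Het and Hom and the median change was -0.38.

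Because the study asks about long genes, the span of the called genes was counted. The study's result came from microarrays of cultured postmitotic granule neurons, with Hom against WT or a topoisomerase II inhibitor against its solvent. Here the cells were uncultured GNPs, measured by RNA-seq and compared between Hom and Het, so the counts do not check that result. Of the 48 lower genes 19, or 39.6%, span over 100 kb, as do 28% of the higher genes with a position and 12.7% of all tested genes with one. Over the 2171 long genes the median change was 0.03, beside 0.02 over the 14888 shorter ones. The typical long gene therefore did not lie lower in Hom than in Het. Of the long genes 0.875% were called lower and 0.322% higher, against 0.195% and 0.121% of the shorter ones. Cadps2 and Grik2 are among the long genes that fell and Sdk2 and Slit1 among those that rose. None of the 60 tested genes within 10 Mb of Chd7 was called. With 0.427% of all tested genes called, a group of this size is not expected to hold a call.

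The second step was finally compared between the sequencing batches. All 48 lower genes were below 0 and all 26 higher genes above 0 in both batches alone. Within each batch every Hom library lay beyond every Het library in these genes. The selection on both batches favours both results. How many of all tested genes have the same order within each batch was not counted, so this only describes the called genes. For the difference between the batches no gene passed at a limma adjusted p under 0.05, and 440 had an unadjusted p under 0.05, 1 of them among the 74 called genes. In the plot of both batches, Otx1 and Cadps2 lie close to the line of equal change.

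**Figure D5:**
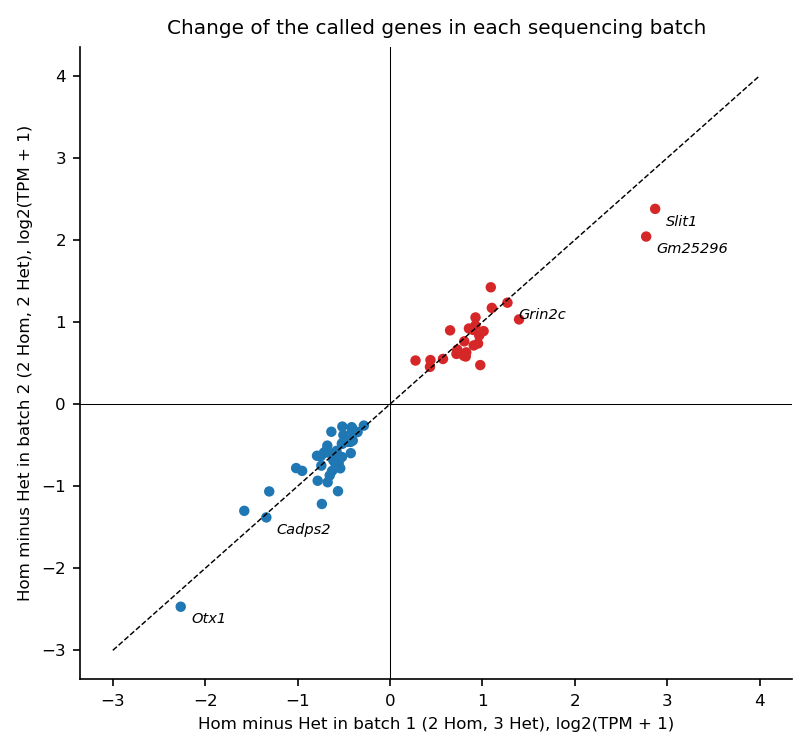
Hom minus Het change on the log2(TPM + 1) scale in batch 1 (horizontal axis, 2 Hom and 3 Het libraries) and in batch 2 (vertical axis, 2 Hom and 2 Het libraries) for the 74 called genes, lower in blue and higher in red, with a dashed line at equal change. All blue points lie below 0 and all red points above 0 on both axes.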

How the data were processed

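Total RNA of GNPs at P7 was sequenced in 14 libraries. The authors deposited 1 table of gene-level TPM, made from single-end reads with Bowtie 1.0.0 and RSEM 1.2.15 on mm10. TPM is a share of a fixed total and keeps no depth. Columns headed as controls were taken as WT of the same number. Genes were named and placed by GENCODE M21 (GRCm38), 1-based.

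Values were analysed as log2(TPM + 1), which understates changes of low genes, for genes with at least 1 TPM in at least 4 libraries. All 14 libraries entered 1 linear model across all genes in limma 3.58.1 (R 4.3.3), fitted on genotype plus sequencing batch, and eBayes used an intensity trend. P-values were two-sided and Benjamini-Hochberg adjusted over 17325 genes. The study's own route, ComBat with Kruskal-Wallis or t tests, was not run. The script was tested on simulated data.

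Named genes were Chd7, 11 genes picked from the study's text, the 10 largest falls and 10 largest rises among called genes (mean of at least 5 TPM in Het or Hom, every Hom library beyond every Het library of its batch), and called members of the gene lists. Members and lists were chosen with earlier results of these data known. No source states that libraries came from separate litters, so p-values measure only the spread between libraries. Alternatives changed 1 choice at a time: pseudocount, filter, scaling, libraries, batch term, replicate block, trend and weights. Values of some list members and called genes are not reported here.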

Additional observations from a re-analysis of the deposited data

Results flagged for a closer look

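Of 120 groups of values, from 40 named genes in 3 genotypes, 2 held a library far from the others, and chance gives about 1 in 20. Neurod1 in Het 3 was high, at 875.62 TPM against 753.11 to 778.78 TPM in the other Het libraries, a gap of 0.778 of the group's range. Antxr1 in Het 5 was high, at 13.98 TPM against 10.71 to 11.56 TPM, a gap of 0.715 of the range.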

How the results depend on the processing

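Counts of called genes moved with the model, and the cause was not tested unless fewer libraries entered the fit. Only the 9 mutant libraries gave 27 lower and 15 higher genes, batch 1 alone 7 and 4, batch 2 alone 2 and 0, no batch term 27 and 14, and array weights 76 and 42. Without an intensity trend 28 genes were lower. With the Y-linked level as a covariate, chosen after seeing the data, 31 were lower and 17 higher. Departures from equal steps gave 2 genes with a pseudocount of 0.1 or 0.5, a mean of at least 5 TPM, quantile normalization, array weights or batch 2 alone, and 1 in batch 1 alone. The batch difference gave 1 gene with Het 3 in batch 2, the batch that its title style fits, and 2 with a pseudocount of 0.1. In expression Het 3 lay on the side of batch 1. Over the 500 genes with the largest batch shift, estimated without Het 3, its correlation with that shift was -0.22. The correlation was -0.60 and -0.37 in Het 1 and 2, and 0.67 and 0.68 in Het 4 and 5.

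Leaving out single libraries gave 19 to 48 lower genes, 9 to 26 higher genes and 0 to 1 departures. The lower count fell by over 1.5 times, to between 19 and 31, without WT 2, any Het library, Hom 1, Hom 2 or Hom 4, and the higher count, to between 9 and 17, on leaving out Hom 1, 2 or 4 or Het 1, 2 or 4. Of the 31 named calls 18 held without any 1 library, and Cadps2 alone held in every setting. No named call changed sign. The Chd7 Hom minus Het change, -0.00, turned to 0.0141, 0.0349, 0.113, 0.00623, 0.0145, 0.0691 and 0.0141 with quantile normalization, mutants only, batch 1 alone, no batch term, Het 3 in batch 2, the replicate block and array weights, and lay between -0.12 and 0.12 without single libraries. Medians of the axon guidance, GABA-A receptor, Purkinje marker and sodium, calcium and HCN channel lists changed sign with a scaling.

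Same-numbered Het and Hom libraries deviated together with correlations of 0.286, 0.261, 0.005 and 0.138 across genes. Hom 1 and Hom 2 correlated best with the Het library of their own number, and Hom 3 and Hom 4 with Het 5. Het 3 and Hom 3 are in different batches, so these values cannot settle whether libraries were paired. The numbers were not taken as pairs in the main model. The replicate block in place of batch gave 33 lower genes, 28 of them called in the model with batch, and 37 higher, 21 of them called. Depth per library is unknown and limits low genes such as Grin2c and Hrk.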
